A study of Homo sapiens with 27 samples.

Results

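The genes described here code for the subunits of oxidative phosphorylation, taken from RNA-sequencing of human lobular breast cancer cell lines grown without estrogen. They are the protein-coding genes of the deposited table whose symbol begins with NDUFA, NDUFB, NDUFC, NDUFS or NDUFV and a digit (complex I), UQCR (complex III), COX followed by a digit from 4 to 8 (complex IV) or ATP5 (complex V), or with MT-ND, MT-CYB, MT-CO or MT-ATP. This symbol rule found 98 of the 60619 genes in the table, of which 85 lie in the nuclear genome and 13 in the mitochondrial genome. Of the nuclear-coded genes 39 were assigned to complex I, 9 to complex III, 17 to complex IV and 20 to complex V, and of the MT- genes 7 were assigned to complex I, 1 to complex III, 3 to complex IV and 2 to complex V. The rule uses symbols and no measured value, though it was set with earlier results of these data known.

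Oxidative phosphorylation passes electrons from NADH and succinate through protein complexes of the inner mitochondrial membrane to oxygen, and ATP synthase (complex V) uses the proton gradient that results to make ATP. Complexes I, III, IV and V are built from subunits of both genomes: the mitochondrial DNA codes for hydrophobic core subunits that are transcribed inside the organelle as long precursors, while the larger number of subunits is transcribed in the nucleus and imported. Breast cancer cells use both glycolysis and respiration, and the nuclear-coded subunits are commonly described as targets of the factors NRF1, GABP (an ETS factor) and YY1 and of the coactivators PGC-1alpha and PGC-1beta.

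The series holds 27 libraries in 9 groups of 3. MM134 (MDA-MB-134VI) and SUM44 (SUM44PE) are estrogen receptor-positive human cell lines of invasive lobular carcinoma, and their long-term estrogen-deprived (LTED) variants grew out over months in IMEM with charcoal-stripped serum, in which they were kept. The groups are MM134 parental cells and their variants LTED-A, -B, -D and -E, the SUM44PE line, SUM44F (SUM44PE cells adapted to DMEM:L-15 with fetal bovine serum), and the variants LTED-A and -B derived from SUM44F. The parental cells were themselves hormone-deprived for 3 days in IMEM with stripped serum before collection, so each comparison sets long-term against short-term deprivation. The labels do not say that the wells of a group came from separate cultures, so p-values measure the spread between the sampled wells, which may be technical, and each LTED variant is a single derived population. In bulk libraries, fewer cells of a kind and less RNA per cell cannot be told apart.

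The libraries held 28583554 to 134882175 estimated counts (median 44018412), and 2 of them, SUM44 LTED-A 2 and 3, differed by less than the sampling noise (chi-square per degree of freedom 0.312, against 2.35 to 58.1 in the other 26 pairs of a group) and were counted as 1 sample, which left 26. The lines carried the luminal epithelial markers KRT8, KRT18, KRT19, EPCAM, GATA3, FOXA1 and ESR1, none of them under 77.2 CPM (counts scaled to a common library size) in any library, and CDH1, which lobular carcinoma loses, lay between 8.36 and 24.6 CPM. Library SUM44F 1 stood apart: 7 markers of blood cells and fibroblasts summed to 163 CPM there, with COL1A1 at 85.9, against 5.11 to 27.6 CPM in the other 25 samples. Counts of calls against SUM44F are therefore given with and without it. Of 2 endothelial markers, PECAM1 lay at 21.7 to 27.3 CPM in all 3 SUM44F libraries, 7.40 to 8.37 in SUM44PE and 1.77 to 3.91 in the SUM44 variants, and VWF at 4.02 to 12.4, 2.70 to 2.93 and 0.426 to 0.973. In MM134 the sum of the 7 markers was higher in every parental library (20.8 to 27.6 CPM) than in any variant library (8.20 to 20.4), most of it COL1A1. The part of these markers in the results was not tested. Library SUM44 LTED-A 1 differed from LTED-A 2 and 3 over all genes (chi-square per degree of freedom 58.1 and 56.6, the highest of all pairs). It also stood apart for the MT- genes, as described with them.

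A gene was called when edgeR's quasi-likelihood test over all genes that passed the filter on low counts gave a fold change above 1.5 and a Benjamini-Hochberg adjusted p under 0.001, and adjusted p-values below are from that test. The MM134 fit tested 94 of the 98 members (not COX4I2, COX6A2, COX7B2 and COX8C) and the SUM44 fit tested 95 (not COX4I2, COX7B2 and COX8C). CPM levels of the members are after TMM normalization, which sets the bulk of genes equal between libraries. Scaling by total counts instead lowered the median log2 fold change of all genes to values between -0.30 and -0.11 in the 6 LTED comparisons and in SUM44PE against SUM44F, so log2 fold changes of the members are given beside the same value for all genes.

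The mitochondrial genome packs these coding sequences so closely that some overlap, and a read that lies across such a stretch belongs to both genes. Of 3 overlapping pairs of members, 2 are shown because they are the 4 MT- genes that were called in every MM134 variant, and the third, MT-ATP6 and MT-CO3, shares 1 base (chrM:9207). Both pairs shown lie on the forward strand of the 16569-base mitochondrial genome (chrM, hg38). MT-ATP8 and MT-ATP6 share 46 bases (chrM:8527-8572), and MT-ND4L and MT-ND4 share 7 bases (chrM:10760-10766). Capitals mark the shared bases in the windows chrM:8517-8582 and chrM:10750-10776.
MT-ATP8 and MT-ATP6: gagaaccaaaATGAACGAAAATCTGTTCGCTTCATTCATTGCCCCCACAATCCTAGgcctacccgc
MT-ND4L and MT-ND4: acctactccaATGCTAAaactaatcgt

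In the nucleus, 67 of the 85 genes had an entry in the RefSeq promoter table (GRCh38.p14, 250 bases before to 50 after the transcription start). On either strand, the NRF1 letters CGCATGCGC stood in 10 of the 67 windows (14.9%, against 2.34% of all 27305 windows in the table). The ETS letters CCGGAAGT stood in 11 (16.4%, against 4.95%), and the YY1 letters AAGATGGCG in 8 (11.9%, against 2.14%). The estrogen-related receptor letters TCAAGGTCA stood in 0 of 67, against 0.432% of all windows. At least 1 of the first 3 was found in 26 members (38.8%, against 8.77%). Of the 17 nuclear-coded genes called higher in at least 1 MM134 variant, 14 had a window and 6 of these held a motif. Those 6 are printed 5′ to 3′ on the strand of the gene, with the motif in capitals.
NDUFA13 (ETS, chr19:19516185-19516224, forward): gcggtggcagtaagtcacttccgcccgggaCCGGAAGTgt
UQCRQ (ETS, chr5:132866558-132866625, forward): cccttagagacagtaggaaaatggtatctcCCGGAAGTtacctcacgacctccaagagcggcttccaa
NDUFS7 (NRF1, chr19:1383803-1383871, forward): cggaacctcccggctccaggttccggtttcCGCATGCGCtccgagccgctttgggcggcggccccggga
COX6A1 (NRF1, chr12:120437864-120437932, forward): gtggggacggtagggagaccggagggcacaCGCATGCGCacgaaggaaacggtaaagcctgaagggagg
NDUFA7 (YY1, chr19:8321342-8321371, reverse): tcgcggacggAAGATGGCGtccgccacccg
NDUFB8 (YY1, chr10:100529835-100529864, reverse): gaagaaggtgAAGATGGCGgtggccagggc
These matches are letters in a window, not measured binding. The NRF1 and ETS matches lay before the transcription start and the YY1 matches of NDUFA7 and NDUFB8 after it, as did a YY1 match that NDUFS7 held beside the NRF1 match printed.

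The share of a library's counts that fell on the MT- genes differed more between the cell lines than between the variants of a line. In MM134 parental cells the 13 MT- genes took 0.709% ± 0.0528 of the counts (SD, n = 3) and the 85 nuclear-coded genes 0.874% ± 0.00874. In SUM44F the MT- share was 1.67% ± 0.315 and the nuclear share 0.914% ± 0.00481. The ratio of the former to the latter was 0.812 ± 0.0682 in MM134 parental cells and 1.83 ± 0.335 in SUM44F, and the lowest SUM44 library of any group (1.47) lay above the highest MM134 library (1.05). Among the MM134 variants the ratio was 0.849 ± 0.0467 in LTED-A, 1.01 ± 0.0512 in LTED-B, 0.943 ± 0.0850 in LTED-D and 0.776 ± 0.0363 in LTED-E, and the LTED-A, LTED-D and LTED-E libraries overlapped the parental ones. These shares are of all counts, so they follow the total-count scale: RN7SL1, a small cytoplasmic RNA left in total RNA libraries, took 2.26% ± 0.213 of the counts in MM134 parental cells, 3.6% ± 0.423 in LTED-A and 4.30% ± 0.190 in LTED-B.

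**Figure D1:**
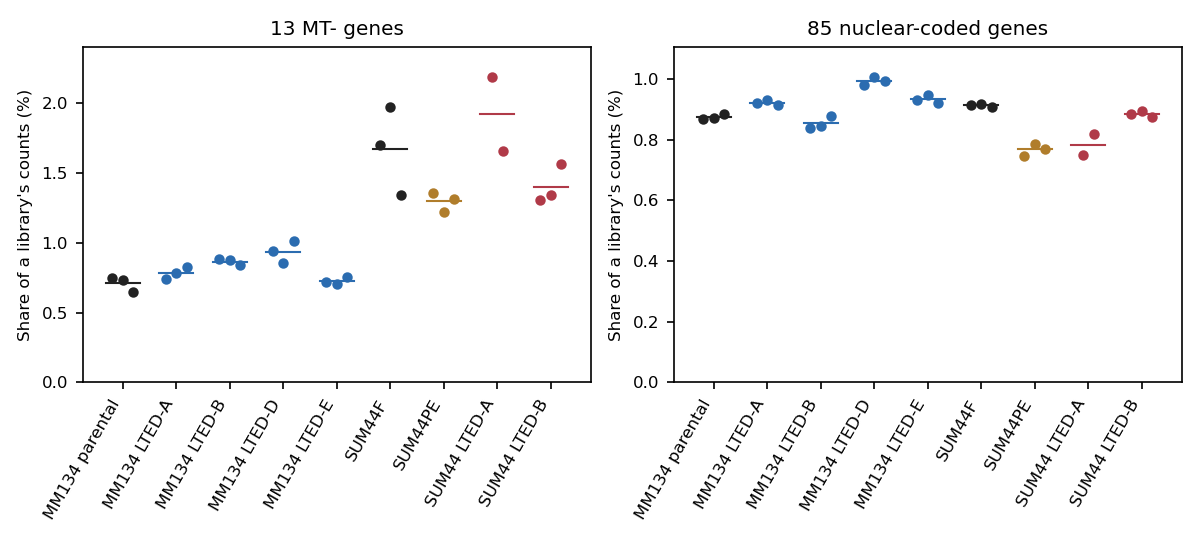
Share of each library's counts (y axis, %) on the 13 MT- genes (left) and the 85 nuclear-coded genes (right), by group, with points for libraries and bars for means. MT- shares lie between 0.649% and 1.01% in MM134 and between 1.22% and 2.18% in SUM44, while nuclear shares of both lines lie between 0.748% and 1.00%.

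Per kilobase of exon, the levels of the subunits spanned more than the difference between the genomes. In MM134 parental cells the median level was 26.0 CPM per kb over the nuclear-coded genes and 75.9 over the MT- genes. MT-CO3, MT-CO1 and MT-CO2, the core subunits of cytochrome c oxidase (complex IV), stood first with 2524, 2175 and 885 CPM per kb, and MT-ND6, the only member on the light strand of the mitochondrial DNA, stood last of the MT- genes with 26.9. NDUFC2, a membrane-arm subunit of complex I, was the highest nuclear-coded gene at 351 CPM per kb, just above MT-ND3 at 349. In SUM44F the medians were 22.9 for the nuclear-coded and 188 for the MT- genes, and the same 3 MT-CO genes led with 5772, 5252 and 2331 CPM per kb. ATP5F1B, the catalytic beta subunit of ATP synthase, led the nuclear-coded genes there at 309 CPM per kb. Exon lengths are unions over the annotated transcripts, so a gene with rarely used exons has a lower level on this scale.

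Tissue-restricted isoforms of complex IV were near or at 0, and the ubiquitous partner carried the level in each pair. COX4I1 had 16.4 CPM per kb in MM134 parental cells and 26.0 in SUM44F, while COX4I2 was at 0 in 25 of the 26 samples. COX6A1 had 110 and 137 CPM per kb, against 0.0202 and 1.31 for its muscle isoform COX6A2. COX7A2 had 61.5 and 44.2 CPM per kb and COX7A2L, which takes part in supercomplexes, 18.3 and 13.8, against 0.465 and 0.552 for the muscle isoform COX7A1. COX6B1 (66.2 and 62.7) stood above COX6B2 (0.238 and 0.226), COX7B (21.4 and 43.5) above COX7B2 (0.0454 and 0.0270), and COX8A (193 and 187) above COX8C (0 and 0.0377), all in CPM per kb. In all, 7 members had no group mean of 1 CPM (ATP5MGL, COX4I2, COX6A2, COX6B2, COX7A1, COX7B2 and COX8C), and NDUFA4L2, NDUFC2-KCTD14 and UQCRHL had none of 5 CPM.

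**Figure D2:**
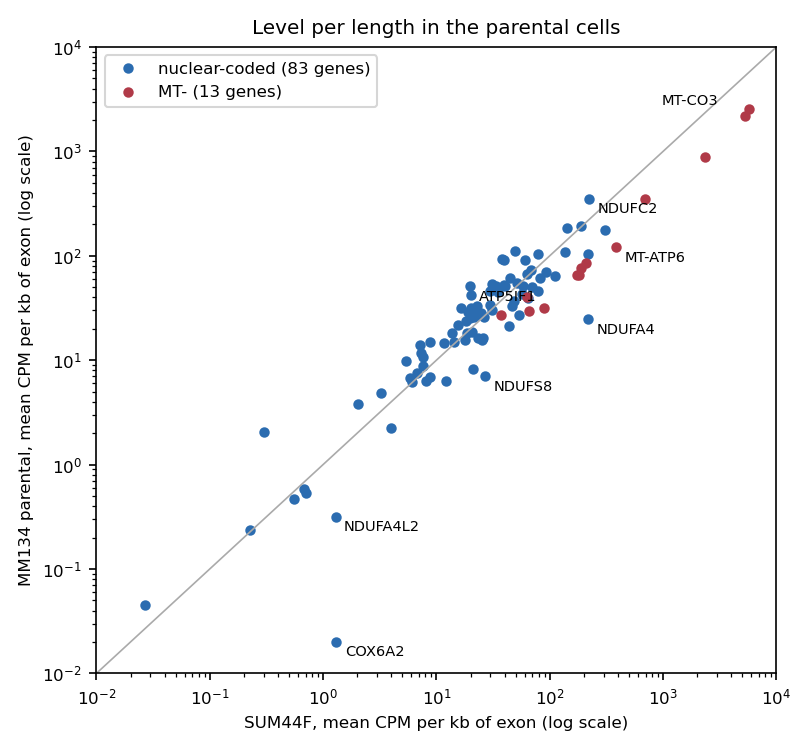
Mean level of each member per kb of exon in SUM44F (x axis) and MM134 parental cells (y axis), both log-scaled CPM per kb, for 83 nuclear-coded (blue) and 13 MT- genes (red), with the line of equal levels. The 2 members under 0.01 CPM per kb in either group are not drawn, all 13 MT- genes lie below the line, and NDUFA4 and COX6A2 lie farthest below it.

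The MM134 variants were compared with the MM134 parental libraries, which all 4 comparisons share. On the TMM scale more members were higher than lower in each of them, and no member was called lower. Called higher were 6 nuclear-coded and 5 MT- genes in LTED-A (10.5% of all genes were called higher and 9.82% lower, 20.3% either way), 1 and 6 in LTED-B (8.11% and 7.75%, 15.9% either way), 14 and 10 in LTED-D (9.63% and 7.95%, 17.6%), and 5 and 5 in LTED-E (8.71% and 10.3%, 19.0%). For the 81 nuclear-coded genes tested these counts are shares of 7.41%, 1.23%, 17.3% and 6.17%, at or below the background except in LTED-D. For the 13 MT- genes they are 38.5%, 46.2%, 76.9% and 38.5%. At an adjusted p under 0.05 without a minimum fold, 56 nuclear-coded genes were higher and 5 lower in LTED-A (26.9% and 26.3% of all genes), 47 and 10 in LTED-B (24.9% and 23.5%), 67 and 4 in LTED-D (26.8% and 24.6%), and 58 and 4 in LTED-E (25.8% and 25.2%).

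Fewer of these calls were made when libraries were scaled by total counts: 5 members higher and 1 lower in LTED-A, 5 higher in LTED-B, 13 higher in LTED-D, and 6 higher and 1 lower in LTED-E. Shares of all genes called on that scale are not given. The lower call was NDUFB4, an accessory subunit of complex I (log2 -0.46 and -0.45 in LTED-A and LTED-E on the TMM scale, named here after its values were seen). Lost on that scale were MT-ATP8, MT-ND1, MT-ND4, MT-ND4L, NDUFB10 and NDUFS8 in LTED-A and MT-CYB and MT-ND4L in LTED-B. In LTED-D the calls of COX6B1, COX7C, MT-CO3, MT-CYB, MT-ND2, MT-ND3, NDUFA1, NDUFA4, NDUFA7, NDUFB8 and UQCRQ were lost, and in LTED-E those of COX6B1, MT-ND1, NDUFS7 and NDUFV2. All 4 calls of ATP5MC1, all 4 of MT-ATP6 and the 3 of NDUFA13 held.

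The differences of the nuclear-coded genes were small and mostly upward. Their median log2 fold change was 0.27 in LTED-A, 0.16 in LTED-B, 0.34 in LTED-D and 0.24 in LTED-E, where the medians of all genes were -0.01, 0.02, -0.03 and 0.02. On the total-count scale the nuclear medians were 0.10, -0.02, 0.15 and 0.10, so the direction flipped in LTED-B, and the medians of all genes were -0.17, -0.15, -0.22 and -0.13. On that scale 41 nuclear-coded genes were higher and 17 lower at an adjusted p under 0.05 in LTED-A, 23 and 25 in LTED-B, 49 and 9 in LTED-D, and 44 and 15 in LTED-E. The same counts over all genes on that scale are not given, so these are not set against a background. The distance between the nuclear median and that of all genes was 0.27, 0.13, 0.37 and 0.22 on either scale. A change of scaling moves all genes of a comparison by about the same amount, so this distance could hardly change. For the MT- genes the median log2 fold change was 0.47, 0.58, 0.72 and 0.40, and it was 0.30, 0.41, 0.52 and 0.25 on the total-count scale, positive on both.

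**Figure D3:**
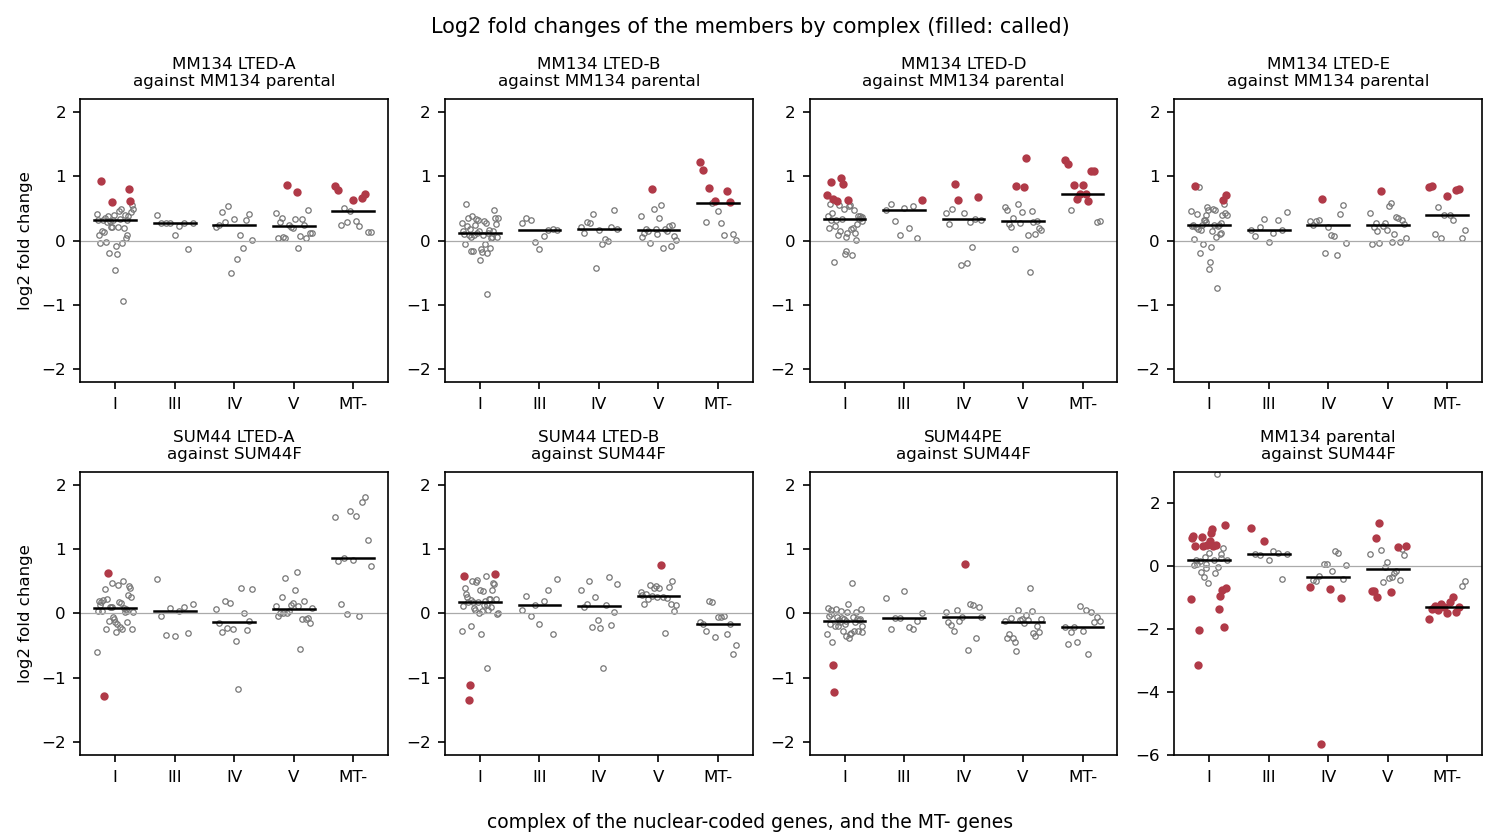
Log2 fold change (y axis) of each tested member in 8 comparisons, by complex of the nuclear-coded genes and for the MT- genes (x axis), with filled points for called genes, open points for the others and bars for medians. Complexes follow the gene symbol, so NDUFA4 is drawn under complex I. In the MM134 panels every filled point lies above 0 and the MT- medians (0.47, 0.58, 0.72 and 0.40) lie above those of the nuclear complexes, though the nuclear median of LTED-B is -0.02 on the total-count scale, and the last panel has a wider y axis.

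Complex I is the entry point for electrons from NADH. Of 39 tested nuclear-coded genes named for it, 4 were called higher in LTED-A, 0 in LTED-B, 7 in LTED-D and 3 in LTED-E. NDUFA13 (GRIM-19, a subunit needed for assembly of the complex) had 119, 125 and 126 CPM in MM134 parental cells. It had 227, 233 and 245 CPM in LTED-A, 177, 184 and 183 in LTED-B, 221, 232 and 238 in LTED-D and 219, 225 and 219 in LTED-E. Every variant library lay above every parental one, with LTED-B the lowest of the variants. NDUFA13 rose 1.9-fold in LTED-A (log2 0.92, SE 0.0331, adjusted p = 2.83e-14), 1.88-fold in LTED-D (adjusted p = 5.35e-14) and 1.8-fold in LTED-E (adjusted p = 1.1e-13). In LTED-B the fold was 1.47 (adjusted p = 6.88e-11), under the threshold.

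The iron-sulfur subunits NDUFS7 and NDUFS8, which carry electrons toward ubiquinone, were called in LTED-A. NDUFS7 had 35.4, 35.4 and 36.8 CPM in parental cells and 59.97, 61.4 and 67.4 in LTED-A (1.75-fold, adjusted p = 1.05e-11). It had 53.9, 57.4 and 53.2 CPM in LTED-E (1.54-fold, adjusted p = 5.85e-10), and both variants lay above all parental libraries. NDUFS8 had 31.0, 33.3 and 31.4 CPM in parental cells and 47.1, 48.2 and 51.4 in LTED-A (1.53-fold, adjusted p = 4.32e-11), again without overlap. NDUFV2, a subunit of the NADH-binding arm, was called in LTED-E only, with 70.5, 68.6 and 65.2 CPM against 42.2, 41.0 and 43.4 in parental cells (1.63-fold, adjusted p = 4.67e-11). Its LTED-B libraries (41.8, 42.7 and 46.8 CPM) overlapped the parental range, and NDUFV2 differed among the 4 variants (log2 range 0.64, adjusted p = 9.47e-10).

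In LTED-D, 7 of the 14 nuclear-coded calls were of genes named for complex I, NDUFA13 among them. These were 17.9% of the 39 tested genes of that name, about the share of all 81 tested nuclear-coded genes (17.3%). NDUFB10, a membrane-arm subunit, had 55.7, 56.5 and 57.6 CPM in parental cells and 108, 109 and 113 in LTED-D (1.96-fold, adjusted p = 1.1e-14), and 84.2, 83.7 and 89.2 in LTED-A (1.51-fold, adjusted p = 9.55e-12). NDUFB2 had 52.0, 51.5 and 52.6 CPM in parental cells and 91.5, 97.7 and 96.0 in LTED-D (1.84-fold, adjusted p = 1.77e-14). The other calls in LTED-D of genes named for complex I were NDUFA1 (log2 0.70), NDUFA4 (0.65), NDUFB8 (0.63) and NDUFA7 (0.62). Of these, NDUFA4 is known as a subunit of complex IV. No LTED-D library of these genes overlapped a parental one. The LTED-A calls of NDUFB10 and NDUFS8 lay close to the 1.5-fold threshold and were lost without LTED-A 3 (log2 0.57 and 0.58), and that of NDUFB10 also without MM134 parental 1 (0.58).

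Of the 14 nuclear-coded calls in LTED-D, 4 lay among neighbouring genes with a raised median. The 40 nearest genes of each member with at least 5 CPM had a median above 0.35 (log2) around 8 members in LTED-D and around 0 members in the other 3 variants. Of these 8, the called genes were NDUFB10 on chromosome 16 (neighbours 0.48), NDUFA4 (0.42), NDUFB2 (0.38) and ATP5MF-PTCD1 (0.36) on chromosome 7. UQCRC2, a core subunit of complex III on chromosome 16, was not called and had a lower log2 fold change (0.50) than its neighbours (0.68). Counts of members with shifted neighbours, here and below, are given without the same count over all genes. Copy number was not measured, and its part in these values was not tested.

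Of 9 tested nuclear-coded genes named for complex III, 1 was called higher in LTED-D (11.1%) and 0 in the other variants. Of 13 named for complex IV, 3 were called higher in LTED-D (23.1%), 1 in LTED-E (7.69%) and 0 in LTED-A and LTED-B. Of all genes 9.63% were called higher in LTED-D and 8.71% in LTED-E. UQCRQ, a small subunit of complex III, was called in LTED-D, with 174, 174 and 176 CPM against 111, 113 and 119 in parental cells (1.54-fold, adjusted p = 6.20e-11). COX6B1, a subunit on the intermembrane side of complex IV, had 88.6, 88.9 and 94.5 CPM in parental cells, 135, 141 and 143 in LTED-D (1.55-fold, adjusted p = 6.51e-11) and 134, 146 and 144 in LTED-E (1.57-fold, adjusted p = 3.72e-11). COX6A1 had 143, 148 and 151 CPM in parental cells and 261, 268 and 272 in LTED-D (1.83-fold, adjusted p = 4.93e-13), while the other 3 variants lay between 171 and 187 CPM. COX7C was called in LTED-D as well (1.60-fold, adjusted p = 3.33e-12). The variants called for these genes did not overlap the parental libraries, and COX6A1 differed among the variants (log2 range 0.60, adjusted p = 6.56e-11).

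In complex V, ATP5MC1 was the only nuclear-coded gene called in all 4 MM134 variants. It is 1 of 3 genes (with ATP5MC2 and ATP5MC3) that code for the same mature c subunit of the proton-driven ring. ATP5MC1 had 26.1, 28.3 and 29.1 CPM in parental cells. It had 49.7, 51.0 and 52.6 CPM in LTED-A, 47.1, 47.6 and 50.3 in LTED-B, 47.9, 49.5 and 50.7 in LTED-D and 46.3, 48.1 and 47.1 in LTED-E. All 12 variant libraries lay above the parental ones, between 46.3 and 52.6 CPM. It rose 1.83-fold in LTED-A (log2 0.87, SE 0.0403, adjusted p = 1.21e-12), 1.74-fold in LTED-B (adjusted p = 7.65e-12), 1.79-fold in LTED-D (adjusted p = 3.74e-12) and 1.71-fold in LTED-E (adjusted p = 9.50e-12).

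The other 2 genes of the c subunit were not called in any variant. ATP5MC2 had 124, 132 and 129 CPM in parental cells, and its highest levels were in LTED-D (189, 183 and 195). ATP5MC3 had 120, 117 and 120 CPM in parental cells and 129 to 144 in the 12 variant libraries. Per kilobase ATP5MC1 stood at 10.6 CPM per kb in parental cells and 19.5 in LTED-A, below ATP5MC2 (32.9 and 38.8) and ATP5MC3 (30.6 and 35.5) in both. ATP5IF1, the inhibitor of ATP hydrolysis by complex V, had 113, 111 and 115 CPM in parental cells and 98.8 to 122 in the variants, and it was not called in any.

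ATP5MF, subunit f of the membrane part, had 77.8, 79.3 and 80.5 CPM in parental cells and 136, 142 and 141 in LTED-D (1.78-fold, adjusted p = 1.04e-11), without overlap. ATP5MF-PTCD1 is a readthrough gene that shares exons with ATP5MF, so its estimated counts are uncertain. It had 6.55, 4.67 and 8.10 CPM in parental cells and 16.5, 14.9 and 14.9 in LTED-D (2.43-fold, adjusted p = 1.16e-07). It was called in LTED-A too (1.68-fold, adjusted p = 6.48e-05), but not without MM134 parental 2, its lowest library (log2 0.56). The other readthrough and near-copy genes, NDUFC2-KCTD14, UQCRHL and ATP5MGL, were called in no comparison.

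**Figure D4:**
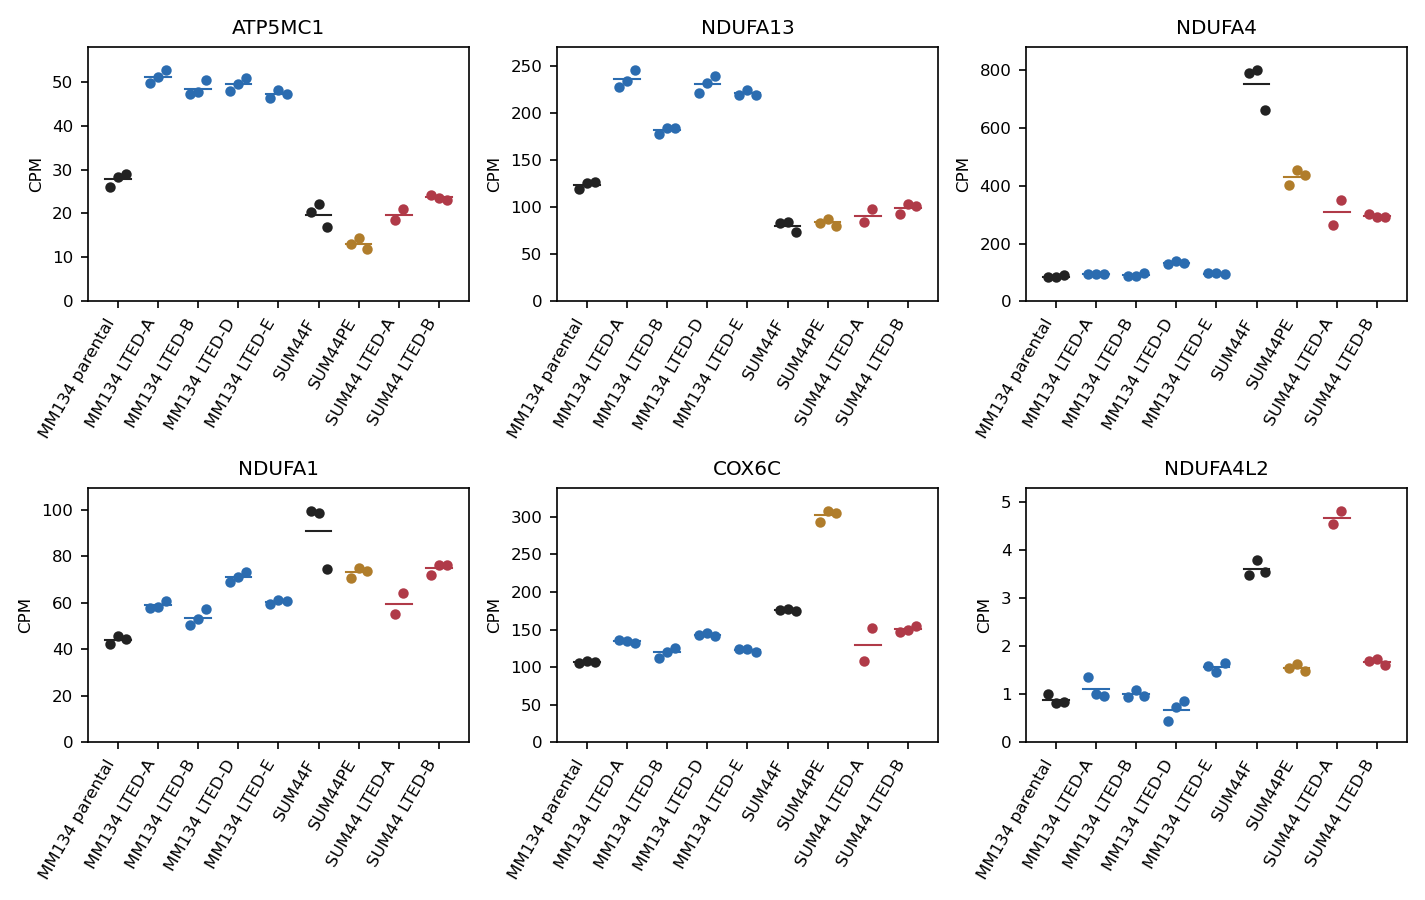
Level (y axis, CPM) of 6 nuclear-coded genes in each library by group, with points for libraries and bars for means. ATP5MC1 and NDUFA13 are higher in all 12 MM134 variant libraries than in MM134 parental cells, NDUFA4 is lower in both SUM44 variants than in SUM44F, and NDUFA4L2 stays under 5 CPM everywhere.

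Of the MT- genes, 4 were called higher in all 4 MM134 variants, as 2 pairs that overlap on the genome, and 3 were called in none. MT-ATP6 and MT-ATP8, subunits a and A6L of the membrane part of ATP synthase, had the largest fold changes of the 13 in each variant. MT-ATP6 had 93.7, 85.8 and 66.8 CPM in parental cells and 126, 150 and 171 in LTED-A (1.80-fold, SE 0.133 on the log2 scale, adjusted p = 2.30e-05). It had 207, 192 and 176 CPM in LTED-B (2.34-fold, adjusted p = 3.41e-07), 191, 159 and 234 in LTED-D (2.39-fold, adjusted p = 2.21e-07) and 145, 133 and 157 in LTED-E (1.77-fold, adjusted p = 3.66e-05). No variant library overlapped the parental ones, of which the third was the lowest. MT-ATP8, which shares 46 bases with MT-ATP6, rose by log2 0.78 in LTED-A, 1.1 in LTED-B, 1.19 in LTED-D and 0.85 in LTED-E. Nuclear pseudogenes of mitochondrial sequence took 0.00287% of the counts in MM134 parental cells. Their share was 0.00341%, 0.00377%, 0.00411% and 0.00350% in LTED-A, -B, -D and -E. The pseudogene with the most counts in any library of the series was MTATP6P1. Their part in the MT- values was not tested.

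MT-ND4 and MT-ND4L, proton-pumping subunits of complex I, were the other pair called throughout. MT-ND4 had 99.8, 93.2 and 80.1 CPM in parental cells and 131, 147 and 159 in LTED-A, a rise of 1.59-fold (adjusted p = 4.49e-05). It had 176, 151 and 136 CPM in LTED-B (1.70-fold, adjusted p = 1.23e-05), 185, 165 and 226 in LTED-D (2.12-fold, adjusted p = 1.35e-07) and 152, 145 and 171 in LTED-E (1.72-fold, adjusted p = 7.76e-06). The groups did not overlap. MT-ND4L rose by log2 0.73, 0.59, 1.09 and 0.81 in the same order. MT-ND1 was called in LTED-A (log2 0.64), LTED-D (0.86) and LTED-E (0.69) and had 0.46 in LTED-B, and MT-ND2 was called in LTED-D (0.72).

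Among the other MT- genes, MT-CYB (cytochrome b of complex III) was called in LTED-B (log2 0.62) and LTED-D (0.72). MT-CO2, which accepts electrons from cytochrome c, was called in the same variants (0.82 and 0.86). MT-CO3 and MT-ND3 were called in LTED-D only (0.64 and 0.61), and MT-CO3 differed among the variants (log2 range 0.60, adjusted p = 1.34e-07), with 0.04 in LTED-E. MT-CO1, MT-ND5 and MT-ND6 were called in none. MT-CO1 had 3455, 3450 and 3158 CPM in parental cells and its log2 fold change was 0.24, 0.29, 0.47 and 0.10, which passed an adjusted p under 0.05 in LTED-A, LTED-B and LTED-D. Since 88.6% to 91.7% of the counts of the MT- genes in MM134 libraries fell on the 3 MT-CO genes, the MT- share of a library follows these rather than the genes that rose most.

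In total, 10 MT- genes were called higher in at least 1 MM134 variant, 7 in at least 2, 5 in at least 3 and 4 in all, and the corresponding nuclear-coded counts were 17, 6, 2 and 1 of the 81 tested. All 4 comparisons share the parental libraries, and the same counts over all genes are not given. Repeated calls are therefore not read as particular to the members. Library MM134 parental 3 was the lowest parental library for each of the 13 MT- genes. Without it the calls of MT-ATP8 (log2 0.68) and MT-ND1 (0.54) in LTED-A, MT-CYB (0.51) and MT-ND4L (0.50) in LTED-B and MT-ND3 (0.55) in LTED-D were lost. Single variant libraries also decided MT-ATP8 in LTED-A (0.65 without LTED-A 3), MT-ND4L in LTED-B (0.50 without LTED-B 1), MT-CO3 in LTED-D (0.58 without LTED-D 3) and MT-ND3 in LTED-D (0.58 without LTED-D 1 and 0.56 without LTED-D 3). MT-RNR2, the large ribosomal RNA of the same genome and no member, took 0.226% ± 0.0649 of the counts in parental cells. Its share was 0.229%, 0.321%, 0.195% and 0.180% in the LTED variants A, B, D and E. These are shares of all counts in ribosome-depleted libraries, not values on the TMM scale of the calls.

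**Figure D5:**
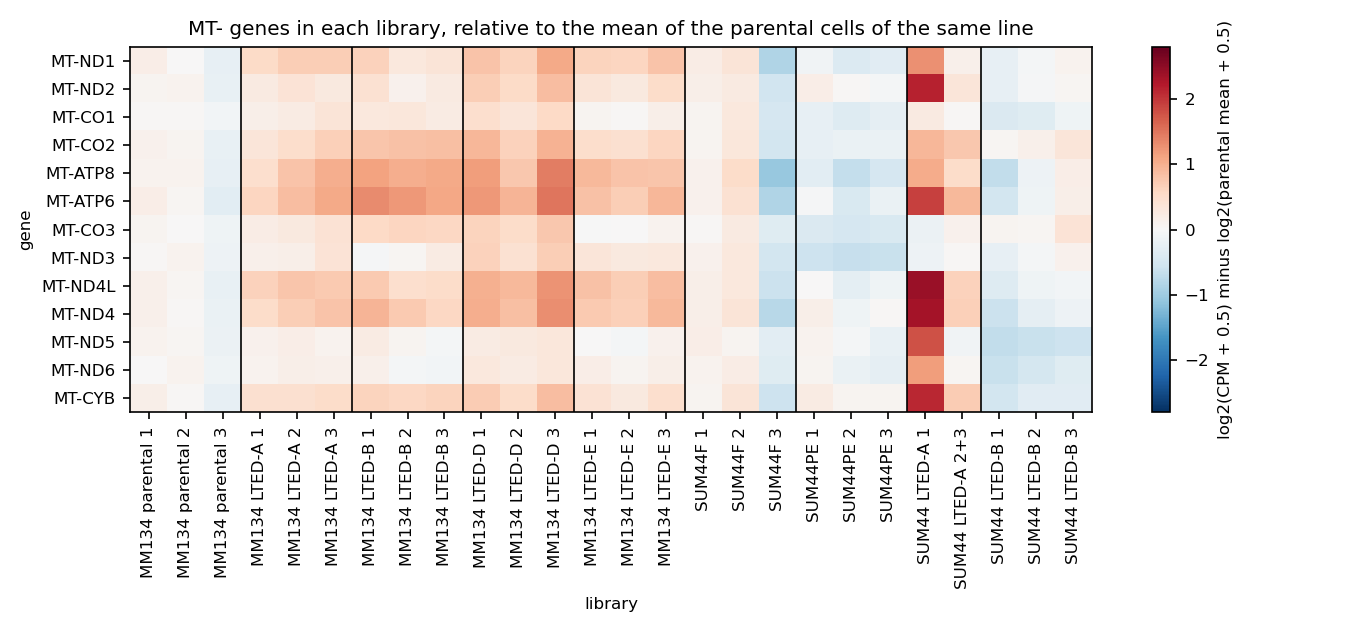
Colour map of the 13 MT- genes (rows, in genome order) in 26 samples (columns), as log2(CPM + 0.5) minus log2(mean + 0.5) of the parental libraries of the same line on the TMM scale. The MM134 variants are red for MT-ATP8, MT-ATP6, MT-ND4L and MT-ND4 and near white for MT-ND5 and MT-ND6, and SUM44 LTED-A 1 stands apart from the other SUM44 samples.

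Members differed between the MM134 variants in 54 of 81 nuclear-coded and 5 of 13 MT- genes at an adjusted p under 0.001, where 42.2% of all genes did. Among the nuclear-coded genes NDUFA4L2 (log2 range 1.17), ATP5MF-PTCD1 (0.72), NDUFV2 (0.64), NDUFB10 (0.64), UQCRC2 (0.63) and NDUFA12 (0.61) had the widest ranges of those past this threshold. NDUFA4L2, a paralog of NDUFA4 known for induction by hypoxia, had 1.58, 1.46 and 1.65 CPM in LTED-E and 0.452, 0.730 and 0.859 in LTED-D, a difference at low levels.

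The SUM44 variants were compared with SUM44F, whose libraries all comparisons of this line share. Few members were called. In LTED-A 1 nuclear-coded gene was called higher and 1 lower (6.39% of all genes were called higher and 7.28% lower, 13.7% either way), and in LTED-B 3 and 2 (8.69% and 8.57%, 17.3%), of 82 tested, with 0 of the 13 MT- genes in either. Without a minimum fold, the count at an adjusted p under 0.05 was 13 higher and 6 lower nuclear-coded genes in LTED-A (17.8% and 18.3% of all genes), and 30 and 3 in LTED-B (22.8% and 23.1%). The nuclear median was 0.04 in LTED-A and 0.20 in LTED-B, beside -0.06 and -0.09 for all genes. In LTED-A it was 0.20 without LTED-A 1 and -0.07 without LTED-A 2 and 3, so it rests on samples that differ. On the total-count scale the nuclear median was -0.12 in LTED-A, a flip of direction, and 0.00 in LTED-B. At an adjusted p under 0.05, 9 nuclear-coded genes were then higher and 24 lower in LTED-A, and 23 and 11 in LTED-B. The median of all genes was negative on that scale in both variants, and the same counts over all genes are not given. The flip and these counts are therefore not read as particular to the members.

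NDUFA4 fell in both SUM44 variants. The gene is named for complex I but known as a subunit of complex IV. NDUFA4 had 790, 800 and 663 CPM in SUM44F, 265 CPM in LTED-A 1 and 352 in the mean of LTED-A 2 and 3, and 300, 293 and 290 in LTED-B. No variant library reached the lowest SUM44F library. The fold was 0.411 in LTED-A (log2 -1.28, SE 0.137, adjusted p = 3.59e-05) and 0.392 in LTED-B (log2 -1.35, SE 0.119, adjusted p = 7.09e-06). The SUM44PE libraries (404, 454 and 436 CPM) lay between them.

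The paralog NDUFA4L2 separated the SUM44 variants. It had 3.49, 3.79 and 3.54 CPM in SUM44F, 4.55 in LTED-A 1, 4.81 in LTED-A 2 and 3, and 1.69, 1.73 and 1.62 in LTED-B. The LTED-B libraries lay below all others of these groups (0.464-fold of SUM44F, adjusted p = 4.48e-05), and LTED-A was 2.8-fold above LTED-B (adjusted p = 2.38e-05). It was the only member called between the SUM44 variants, where 3.56% of all genes were called higher in LTED-A and 3.86% lower, 7.42% either way. Without LTED-A 2 and 3 that count was 11.

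Higher in SUM44 LTED-A was NDUFA7 (1.54-fold, adjusted p = 0.000373), with 24.5, 23.6 and 21.3 CPM in SUM44F and 33.2 and 37.6 in LTED-A. Its call was lost without SUM44F 2 (log2 0.65, adjusted p = 0.00184), SUM44F 3 (0.58) and LTED-A 2 and 3 (0.52, adjusted p = 0.00256). Higher in LTED-B were ATP5MF-PTCD1 (1.69-fold, adjusted p = 0.000515), NDUFS8 (1.53-fold, adjusted p = 0.000523) and NDUFA11 (1.501-fold, adjusted p = 0.000745). NDUFS8 had 131, 131 and 102 CPM in SUM44F and 174, 190 and 190 in LTED-B, and NDUFA11, a membrane-arm subunit, had 38.3, 36.0 and 29.6 and then 48.6, 54.7 and 52.5. The groups did not overlap, but these 3 calls did not hold without single libraries.

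The call of ATP5MF-PTCD1 in SUM44 LTED-B was lost without any 1 of the 6 libraries (log2 0.64 to 0.84, adjusted p = 0.00102 to 0.00367). The calls of NDUFS8 (0.50 to 0.67) and NDUFA11 (0.48 to 0.63) were lost without SUM44F 2 or 3 or without any 1 of the LTED-B libraries. Without SUM44F 1, the library with fibroblast markers, the counts were 1 higher and 1 lower in LTED-A and 2 and 2 in LTED-B. The 40 genes nearest to NDUFA11, on chromosome 19, had a median of 0.35 in LTED-B. Such a median lay above 0.35 around 9 members in LTED-A and 11 in LTED-B, and below -0.35 around 1 and 0.

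In the fit of SUM44F and its variants with all libraries, no MT- gene was called by edgeR or DESeq2. At an unadjusted p under 0.05 edgeR counted 9 of the 13 MT- genes in LTED-A and 0 in LTED-B. More members were called higher in LTED-A with 1 fit of all 9 groups or without a filter. How many of those were MT- genes is not given. MT-ND4 had 280, 320 and 146 CPM in SUM44F, 1252 in LTED-A 1, 394 in LTED-A 2 and 3, and 165, 208 and 226 in LTED-B. LTED-A 1 was the highest SUM44 sample for MT-ND4, and SUM44F 3 the lowest, so SUM44F and LTED-B overlapped. In LTED-A the log2 fold change of MT-ND4 was 1.73 (SE 0.416, adjusted p = 0.00772) and 0.71 without LTED-A 1 (adjusted p = 0.166). MT-CYB was at 1.58 (adjusted p = 0.00439) and 0.76 without it, MT-ND5 at 1.14 (adjusted p = 0.0409) and -0.06 without it, and MT-CO2 at 0.85 (adjusted p = 0.00909) and 0.81 without it.

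Leaving out LTED-A 2 and 3 instead, so that LTED-A 1 stood alone, had the opposite effect, and 5 MT- genes were then called higher. Their log2 fold changes were 2.34 for MT-ND4 (adjusted p = 0.000795), 2.12 for MT-CYB (adjusted p = 0.000353), 2.16 for MT-ND2 (adjusted p = 0.000191), 2.44 for MT-ND4L (adjusted p = 0.000170) and 1.80 for MT-ND5 (adjusted p = 2.40e-05). In both directions LTED-A is left with 1 sample, which is assumed to vary like the other groups, so these p-values rest on the spread within SUM44F and LTED-B.

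The composition of the MT- counts set SUM44 LTED-A 1 apart as well. The 3 MT-CO genes held 77.6% of its MT- counts and 89.0% to 92.6% in the other 10 SUM44 samples, and nuclear pseudogenes of mitochondrial sequence took 0.0143% of its counts against 0.00233% to 0.00659% in the other 25 samples. The part of these pseudogene counts in the MT- values was not tested. The median log2 fold change of the MT- genes was 0.85 in LTED-A and -0.16 in LTED-B, and leaving out single libraries moved these medians between 0.39 and 1.29 and between -0.42 and 0.09. Between LTED-A and LTED-B, 8 MT- genes were higher in LTED-A at an adjusted p under 0.05 and 0 were called by edgeR, against 1 by DESeq2.

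SUM44PE, the line before adaptation to the other medium, had 3 members called against SUM44F. COX6C, a subunit of complex IV, was called higher, and NDUFA4 and NDUFA4L2 were called lower (2.85% of all genes were called higher and 2.72% lower, 5.57% either way). COX6C had 176, 178 and 174 CPM in SUM44F and 294, 308 and 306 in SUM44PE, without overlap (1.71-fold, adjusted p = 0.000126). NDUFA4 was at 0.571-fold (adjusted p = 0.000163) and NDUFA4L2 at 0.428-fold (adjusted p = 8.12e-06), with 1.55, 1.63 and 1.49 CPM. The NDUFA4 call was lost without SUM44PE 1 (log2 -0.75, adjusted p = 0.00135) or SUM44PE 3 (-0.81, adjusted p = 0.00141), and without SUM44F 3 there were 4 lower calls. Without SUM44F 1 the 3 calls held (log2 0.78 for COX6C, -0.77 for NDUFA4 and -1.24 for NDUFA4L2). At an adjusted p under 0.05 without a minimum fold, 2 nuclear-coded genes were higher and 20 lower in SUM44PE, beside 10.7% and 12.4% of all genes. The nuclear median was -0.11 (-0.19 on the total-count scale) and the MT- median -0.21 (-0.27), where all genes had -0.02 (-0.11).

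The parental cells of the lines, MM134 parental and SUM44F, were compared next. Of 82 nuclear-coded genes 18 were called higher and 16 lower in MM134 parental cells (22.0% and 19.5%, beside 19.1% and 19.0% of all genes, 38.1% either way), and of 13 MT- genes 0 were called higher and 11 lower. At an adjusted p under 0.05 without a minimum fold the nuclear counts were 38 and 30, beside 31.5% and 33.6% of all genes. The MT- median was -1.30 and the nuclear median 0.10, beside -0.08 for all genes. The median of the neighbour medians of the tested nuclear-coded genes was 0.13. MT-ATP6 had 93.7, 85.8 and 66.8 CPM in MM134 parental cells and 287, 355 and 147 in SUM44F (0.313-fold, adjusted p = 3.12e-06). MT-CO1 had 3455, 3450 and 3158 CPM in the former and 8576, 9891 and 5829 in the latter (0.414-fold, adjusted p = 1.45e-09). No MM134 parental library of either gene reached the lowest SUM44F library. MT-ND5 (log2 -0.63, adjusted p = 0.0291) and MT-ND6 (-0.47, adjusted p = 0.0278) were not called.

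Nuclear-coded genes lower in MM134 parental cells were led by NDUFA4, with 83.2, 83.5 and 90.7 CPM against 790, 800 and 663 in SUM44F (0.114-fold, adjusted p = 2.07e-20). NDUFA4L2 followed at 0.246-fold (adjusted p = 3.28e-11), at levels under 5 CPM, and NDUFS8 at 0.263-fold (adjusted p = 7.97e-18). COX6A2 had 1, 0 and 0 estimated counts in MM134 parental libraries and 40, 28 and 40 in SUM44F (adjusted p = 1.83e-07), too few in the former for a fold. NDUFA1, COX7B, ATP5F1E, NDUFS3 and ATP5MF-PTCD1 had log2 fold changes from -1.04 to -0.83. The groups did not overlap for NDUFA4 or NDUFS8.

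Higher in MM134 parental cells were ATP5IF1 and subunits of complexes I, III and V. ATP5IF1 had 113, 111 and 115 CPM against 44.9, 46.7 and 40.8 in SUM44F (2.57-fold, adjusted p = 1.62e-16). NDUFV1, which binds NADH, had 462, 480 and 488 CPM against 205, 203 and 170 (2.47-fold, adjusted p = 1.84e-16). UQCR10 of complex III was 2.32-fold higher (adjusted p = 2.06e-14), and NDUFB7, NDUFB6, NDUFA11, NDUFA7, NDUFA10, ATP5F1D and UQCRC1 were 2.27-fold to 1.75-fold higher. Each of the first pair was without overlap. The median of the 40 neighbouring genes lay above 0.35 around 30 of the 82 members and below -0.35 around 13. Of the 34 called genes, 24 were among these and 23 had moved in the direction of their neighbours, with NDUFS8 (neighbours 0.66) as the exception. The same counts over all genes are not given, so these are not read as particular to the members.

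Without SUM44F 1, the comparison of MM134 parental cells with SUM44F gave 20 higher and 25 lower members, and the calls of MT-ND2 (log2 -1.05, adjusted p = 0.0032) and MT-ND4L (-1.21, adjusted p = 0.00121) were lost. MT-ND2 was also lost without SUM44F 2 (-0.995) or any MM134 parental library (-1.07 to -1.21). MT-ND4L was lost without SUM44F 2 (-1.12) or MM134 parental 2 (-1.33) or 3 (-1.22), and MT-ATP8 without SUM44F 2 (-1.01, adjusted p = 0.00251) or MM134 parental 3 (-1.29, adjusted p = 0.00127). The other 8 MT- calls held without each of the 6 libraries.

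A test of the difference in response took the average response of MM134 cells (4 variants) and subtracted the average response of SUM44 cells (2 variants), on the log2 scale. It was called for 4 of the 95 members, all with a positive difference, where 21.0% of all genes were called, 10.9% with a positive and 10.1% with a negative difference. At an adjusted p under 0.05 without a minimum fold, 24 nuclear-coded genes had a positive and 8 a negative difference, beside 22.8% and 22.4% of all genes. NDUFA4 led with a difference of 1.57 (SE 0.0938, adjusted p = 4.89e-13), since it had 83.2 to 139 CPM in MM134 and fell in SUM44. NDUFA1, an X-linked membrane-arm subunit, had a difference of 0.90 (SE 0.0922, adjusted p = 1.13e-08), with 42.5 to 73.4 CPM in MM134 and 99.3, 98.6 and 74.6 in SUM44F against 55.1 to 76.3 in the SUM44 variants.

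ATP5MC1 had a difference of 0.68 (SE 0.0889, adjusted p = 6.38e-07) between the lines, with 20.2, 22.2 and 16.8 CPM in SUM44F and 18.5 to 24.2 in the SUM44 variants. COX6C had a difference of 0.61 (SE 0.0861, adjusted p = 2.12e-06). The call of ATP5MC1 was lost without SUM44 LTED-A 1 (log2 0.58), and that of COX6C without LTED-A 1 (0.44) or MM134 parental 1 (0.56) or 3 (0.58). COX6C was also not called by DESeq2 (0.56), with RLE size factors (0.56) or with a replicate block (0.53). Without SUM44F 1 the 4 calls held (1.54 for NDUFA4, 0.83 for NDUFA1, 0.66 for ATP5MC1 and 0.61 for COX6C). DESeq2 called 3 nuclear-coded genes with a positive difference and 1, ATP5IF1, with a negative one. The difference of ATP5IF1 was -0.55 by edgeR (adjusted p = 2.14e-07), short of the fold threshold, with log2 fold changes of 0.55 in SUM44 LTED-A and 0.45 in LTED-B. Without LTED-A 2 and 3 the count of called members was 7. Of the 13 MT- genes 0 were called by edgeR or DESeq2 (3 had an unadjusted p under 0.05 by edgeR), with values from -0.31 (MT-ND2) to 0.65 (MT-ATP8) whose SE was 0.130 to 0.329.

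Beside the subunits, 7 lists of genes of the pathway were counted. Of the 4 subunits of complex II, which is wholly nuclear-coded, 0 were called in any LTED comparison, and SDHA (log2 -1.17) and SDHC (-0.83) were called lower in MM134 parental cells than in SUM44F. At an adjusted p under 0.05 without a minimum fold, 4, 2, 4 and 3 of them were higher in MM134 LTED-A, -B, -D and -E and 0 lower. Their median log2 fold changes there were 0.36, 0.08, 0.26 and 0.25. In each SUM44 variant 1 was higher and 1 lower at that threshold. Of 13 electron carrier genes 4 were called higher and 1 lower in MM134 LTED-A, 1 and 1 in LTED-B, 1 and 0 in LTED-D and 2 and 0 in LTED-E, with 0 in SUM44 LTED-A and 2 and 1 in LTED-B. ETFDH, which passes electrons from fatty acid oxidation to ubiquinone, was higher in every MM134 variant, with 9.79 ± 0.156 CPM in parental cells and 28.2 ± 0.170 in LTED-A (log2 1.52, adjusted p = 7.88e-16), 25.5 ± 1.38 in LTED-B, 24.2 ± 0.140 in LTED-D and 17.5 ± 0.494 in LTED-E (SD, n = 3). The background of called genes is that given for each comparison above.

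Of all genes 10.5%, 8.11%, 9.63% and 8.71% were called higher in the MM134 variants and 6.39% and 8.69% in the SUM44 variants, and the counts of assembly factors stand beside these shares. Of 16 complex I factors 1, 1, 2 and 1 were called higher in the MM134 variants (in the order A, B, D, E) and 1 and 2 in SUM44 LTED-A and LTED-B, with 1 lower (ECSIT in MM134 LTED-B, log2 -0.59). NDUFAF2, a chaperone of late complex I assembly, was higher in all 6 comparisons (log2 0.88, 0.60, 0.74 and 0.74 in MM134, and 1.03 and 1.1 in SUM44). Of the 26 tested factors of complexes III, IV and V, 3, 3, 2 and 2 were called higher in the MM134 variants and 2 and 6 in the SUM44 variants, with 1 lower in SUM44 LTED-A. COA3, which acts in the translation and assembly of MT-CO1, had 48.5 ± 1.19 CPM in MM134 parental cells and 104 ± 2.39 in LTED-A (log2 1.099, adjusted p = 3.85e-14). It rose in the other MM134 variants too (log2 0.82, 1.03 and 0.78), and COX20, a factor for MT-CO2, rose in LTED-A (0.95), LTED-B (0.80) and LTED-E (0.96). COX17 and UQCC3 rose in both SUM44 variants (log2 0.72 and 0.88 in LTED-A, 0.76 and 0.84 in LTED-B).

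Of 24 genes for mitochondrial DNA and RNA, 1 was called higher in MM134 LTED-A (TFB1M, log2 0.59) and 2 in LTED-D (SSBP1 and FASTKD1, both 0.59), 1 in SUM44 LTED-B (PNPT1, 0.68), and 0 in the other LTED comparisons. At an adjusted p under 0.05 without a minimum fold, 16, 8, 15 and 14 were higher in the MM134 variants (A, B, D, E) and 2, 6, 1 and 2 lower. In SUM44 these counts were 6 and 2 in LTED-A and 12 and 0 in LTED-B. Shares of all genes at that threshold are given above for each comparison. TFAM, the packaging and transcription factor of mitochondrial DNA, was called in no LTED comparison with parental cells and had 106 ± 3.16 CPM in MM134 parental cells and 90.9 ± 3.04 to 108 ± 0.404 in the variants. Of 16 genes of the TCA cycle and pyruvate dehydrogenase, 4, 1, 5 and 3 were called higher in the MM134 variants and 0 and 1 in the SUM44 variants, and 0 lower. SUCLG2, of succinyl-CoA ligase, was higher in all 4 MM134 variants (log2 0.75, 0.64, 0.65 and 0.77), and FH, fumarase, in LTED-A (0.71), LTED-D (0.61) and LTED-E (0.86).

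Of 10 regulators, 1 was called higher and 2 lower in MM134 LTED-A, 0 and 3 in LTED-B, 2 and 1 in LTED-D, 0 and 2 in LTED-E, 1 and 2 in SUM44 LTED-A, and 0 and 2 in SUM44 LTED-B. Of all genes 9.82%, 7.75%, 7.95%, 10.3%, 7.28% and 8.57% were called lower in these comparisons, and on a list of 10 a single gene is a larger share. MYC had 19.4 ± 0.273 CPM in MM134 parental cells and fell in every MM134 variant (log2 -2.71, -3.86, -3.69 and -6.12), to 0.279 ± 0.0773 CPM in LTED-E. PPARGC1A, which codes for PGC-1alpha, rose in MM134 LTED-A (log2 0.82) and LTED-D (1.04) and fell in SUM44 LTED-A (-0.88) and LTED-B (-1.73), from 48.4 ± 1.12 CPM in SUM44F to 14.6 ± 1.33 in LTED-B. PPARGC1B fell in both SUM44 variants (-2.38 and -3.53) and in MM134 LTED-B (-1.01) and LTED-E (-0.92). ESRRA had 10.6 ± 0.436 CPM in MM134 parental cells and 55.0 ± 5.32 in SUM44F, and it was called in no LTED comparison.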

How the data were processed

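Total RNA was sequenced after ribosomal depletion in 27 libraries. The authors quantified reads with Salmon 0.6.0 against hg38 with Ensembl release 82, and the deposited values are estimated counts per gene (expected counts that need not be whole), which were rounded. Genes kept by filterByExpr were tested with edgeR 4.0.16 in R 4.3.3 (TMM scaling and the quasi-likelihood test, which is two-sided, with p-values adjusted over all genes after Benjamini and Hochberg): 1 fit for MM134, 1 for SUM44F and its variants, 1 with SUM44PE added, and 1 for all 9 groups. SUM44 LTED-A 2 and 3 were averaged. Thresholds were those of the study. Exon lengths were taken from GENCODE version 44. The fits were tested on simulated data. Alternatives were other scalings, filters, thresholds, sets of groups, DESeq2 1.42.0, a replicate block and leaving out each library. Members, lists and tests were chosen with earlier results of these data known. Named were all MT- genes, nuclear-coded genes called repeatedly or among the 10 largest per direction, isoform pairs, readthrough genes and up to 4 called genes per list. Total RNA libraries keep non-coding RNA, so shares and total-count scaling follow it. The values of 1 member are not reported here.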

Additional observations from a re-analysis of the deposited data

Results flagged for a closer look

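In 4 members the change on long-term deprivation differed between the cell lines by a test of the difference itself (edgeR's quasi-likelihood test, Benjamini-Hochberg adjusted). NDUFA4 differed by 1.57 on the log2 scale (adjusted p = 4.89e-13), falling in both SUM44 variants and not in MM134. NDUFA1 differed by 0.90 (adjusted p = 1.13e-08), ATP5MC1 by 0.68 (adjusted p = 6.38e-07) and COX6C by 0.61 (adjusted p = 2.12e-06). The call of ATP5MC1 was lost without SUM44 LTED-A 1 (0.58). That of COX6C was lost by DESeq2 and with RLE size factors (0.56 in both), with a replicate block (0.53), and without SUM44 LTED-A 1 (0.44), MM134 parental 1 (0.56) or MM134 parental 3 (0.58). NDUFA4L2 differed between the SUM44 variants, by 1.49 in LTED-A minus LTED-B (adjusted p = 2.38e-05), at levels under 5 CPM. In groups of 2 or 3 samples no test of single outlying libraries was made.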

How the results depend on the processing

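No direction of a called value reversed. Over 98 named calls, 959 alternative values kept the call and 86 lost it, 28 of them under total-count scaling; 79 calls held without every single library and 19 were lost without at least one. Under total counts (MT- genes left out of the totals) members called higher and lower numbered 5 and 1 in MM134 LTED-A, 6 and 1 in LTED-E, 0 and 2 in SUM44 LTED-A, 13 higher in MM134 LTED-D and 0 higher in SUM44 LTED-B. The nuclear medians there were 0.1048, -0.01746, 0.1454 and 0.09685 in MM134 (variants A, B, D, E) and -0.1231 and 0.0009244 in SUM44. The medians of all genes were negative there in each comparison, and shares of all genes called on that scale are not given. With 1 fit of all 9 groups the higher calls were 6, 3 and 6 in MM134 LTED-A, -B and -E, and 8 with 2 lower in SUM44 LTED-A. In SUM44 LTED-A the higher calls were 9 without a filter (2 lower), 3 by DESeq2, 4 with LTED-A 2 and 3 kept separate, 0 with the 2 groups only (0 lower) and 2 with SUM44PE added. In SUM44 LTED-B they were 1 with at least 10 counts in every library and 5 by DESeq2. Between the SUM44 variants the calls were 8 without a filter and 2 by DESeq2, and between the lines 7 with at least 10 counts. The cause of these moves was not tested.

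At an adjusted p under 0.05 the higher and lower counts were 67 and 5, 57 and 10, 80 and 4, and 67 and 4 in the MM134 variants, 20 and 6 in SUM44 LTED-A, 30 higher in LTED-B, 2 and 21 in SUM44PE, 38 and 43 in MM134 parental cells against SUM44F, 21 between the SUM44 variants and 32 between the lines. Above 2-fold the higher counts were 0, 2, 5 and 0 in MM134, 0 and 0 in SUM44, 0 with 1 lower in SUM44PE, 5 with 17 lower between parental lines, and 1 between the lines.

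Leaving out 1 library at a time gave 8 to 11, 6 to 8, 22 to 25 and 10 to 11 higher calls in the MM134 variants and 53 to 64 among them. In SUM44 LTED-A it gave 0 to 5 higher and 1 to 2 lower calls, nuclear medians of -0.06891 to 0.2012 (-0.004975 without SUM44F 3) and MT- medians of 0.3853 to 1.292. It gave 0 to 2 higher calls in SUM44 LTED-B, 1 to 11 between the SUM44 variants, 1 to 4 lower in SUM44PE, 12 to 20 higher and 24 to 30 lower between parental lines and 3 to 7 between the lines. The lowest SUM44 LTED-A count (0) came without SUM44F 2 or 3 and the highest (5) without LTED-A 2 and 3. Replicate numbers did not pair the samples (same-number correlations -0.498 to 0.368 over 12265 genes). With a replicate block, 95 of the 98 named calls were kept, SUM44 LTED-A had 4 higher calls, and 3 calls were lost: NDUFA11 in SUM44 LTED-B (0.59, adjusted p = 0.00115), MT-ND2 between parental lines (-1.14, adjusted p = 0.00135) and COX6C between the lines (0.53).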
